A study of Mus musculus with 9 samples.

Results

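The genes described here are 29 genes of mouse cholesterol synthesis and its control by the sterol regulatory element-binding proteins (SREBP), among 43629 genes in the count table. They were listed by name, for what their products are known to do, with earlier results of these data known. They fall into 19 enzymes, 7 regulators and 3 genes of sterol transport, and all 29 were found in the table. Of these, 27 had enough reads to be among the 11002 genes tested: the 19 enzymes, the 7 regulators and, of the transport genes, Stard4.

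Cells of an Eµ-Myc lymphoma, clone 4242, were kept in culture for 2 h with JQ1 at 1 µM, RG6146 at 2.5 µM or the vehicle DMSO, in 3 biological replicates each. All 9 cultures carry the Eµ-Myc transgene, in which the immunoglobulin heavy chain enhancer drives Myc in B lineage cells, and all come from a single clone, so the spread between replicates is that between cultures of this clone. JQ1 and RG6146 both inhibit BET bromodomain proteins, readers of acetylated histones, and the doses of the compounds differ. RNA was measured by QuantSeq 3′ mRNA sequencing, in which a read marks the polyadenylated end of a transcript. Libraries held 3410161 to 5031717 gene counts.

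Cholesterol is built from acetyl-CoA through mevalonate, isoprenoid diphosphates, squalene and lanosterol. When sterols run low in the endoplasmic reticulum, SCAP escorts the SREBP precursors to the Golgi, where the proteases encoded by Mbtps1 and Mbtps2 release the active transcription factors, and these raise the genes of the pathway. When sterols are plentiful, INSIG proteins hold SCAP back. Dividing lymphocytes need sterols for new membranes, and the side branches of the pathway supply lipid anchors, dolichol and ubiquinone.

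Of the members with a promoter window, only Hmgcs1 matched the sterol regulatory element as searched here. Insig1 and Hsd17b7 had the largest rises called for JQ1 among the members. All of these genes were called higher with both compounds, and their promoters are shown. Each is the 250 bases before a RefSeq start, on the strand of the gene, in build GRCm38.p6. Capitals mark a sterol regulatory element searched as TCACNCCAC, the site type to which SREBP binds, and the NF-Y box CCAAT, which reads as ATTGG where it lies on the opposite strand and whose factor is known to act with SREBP.
Insig1, chr5:28071162-28071411, plus strand: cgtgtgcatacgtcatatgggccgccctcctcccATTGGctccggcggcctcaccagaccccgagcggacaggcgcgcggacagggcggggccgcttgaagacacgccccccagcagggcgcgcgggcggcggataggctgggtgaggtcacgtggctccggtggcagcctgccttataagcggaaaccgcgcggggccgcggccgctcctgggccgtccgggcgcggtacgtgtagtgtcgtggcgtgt
Hsd17b7, chr1:169969206-169969455, minus strand: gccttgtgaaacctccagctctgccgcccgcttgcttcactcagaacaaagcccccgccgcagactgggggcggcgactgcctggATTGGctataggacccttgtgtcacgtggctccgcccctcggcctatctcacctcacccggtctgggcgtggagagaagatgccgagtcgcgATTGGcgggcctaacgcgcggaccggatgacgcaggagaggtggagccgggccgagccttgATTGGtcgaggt
Hmgcs1, chr13:119690101-119690350, plus strand: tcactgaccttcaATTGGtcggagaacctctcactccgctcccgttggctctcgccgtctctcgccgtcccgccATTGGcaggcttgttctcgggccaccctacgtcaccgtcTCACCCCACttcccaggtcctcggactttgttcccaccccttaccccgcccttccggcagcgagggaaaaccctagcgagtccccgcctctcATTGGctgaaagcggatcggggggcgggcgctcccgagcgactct

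Of the 29 genes, 24 had a window in the RefSeq table of 250 bases before to 50 bases after each start, and 5 (Fdft1, Stard4, Abcg1, Fdps and Sqle) are only named. Both strands were searched, and no match overlapped a match to another of the motifs. The element TCACNCCAC was found in 1 of the 24, Hmgcs1, where it begins 137 bases before the start, and in 1.44% of all 27025 genes with a window. Only this spelling was searched, so its absence does not show that a gene lacks a site for SREBP. CCAAT was found in 19 of the 24, against 41.1% of all genes. The Hmgcs1 and Hsd17b7 sequences above each hold 3 such boxes and that of Insig1 holds 1. The 19 also include members that were not called, such as Mvk and Ggps1, and members called lower, Insig2 and Srebf1. The box therefore does not set apart the genes that rose. The SP1 box GGGCGG was found in 21 of the 24, against 38.2% of all genes. The E-box CACGTG was found in 6 of the 24 (Hsd17b7, Sc5d, Dhcr7, Insig1, Scap and Abca1), against 8.09% of all genes. These are matches of letters in a fixed window, with no binding measured.

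After 2 h, the cells with JQ1 held more transcript of 6 enzymes (Hmgcs1, Mvd, Sqle, Cyp51, Msmo1 and Hsd17b7) and of Insig1 and Mbtps1. They held less of Insig2, Srebf1 and Mbtps2, and 13 of the 19 enzymes were not called. Of the 27 tested genes, 8 were higher in JQ1 than in DMSO and 3 were lower, at an adjusted p below 0.05 over all tested genes. Over all 11002 tested genes the same call was made for 13.6% as higher and for 15.4% as lower. The median log2 fold change was 0.25 over the 27 genes and 0.00466 over all tested genes. Of the 27, 20 lay above 0, as did 5545 of all 11002 tested genes. Without DMSO replicate 2 the JQ1 median over the 27 was 0.13. After RG6146, 6 of the 27 were higher than in DMSO and 4 were lower, where 12.5% of all tested genes were higher and 13.5% lower. The median after RG6146 was 0.19, against 0.00861 over all tested genes. With RG6146, 16 of the 27 lay above 0, as did 5606 of all 11002 tested genes. Both compounds were compared with the same 3 DMSO libraries, so their values are given side by side and are not independent of each other.

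**Figure D1:**
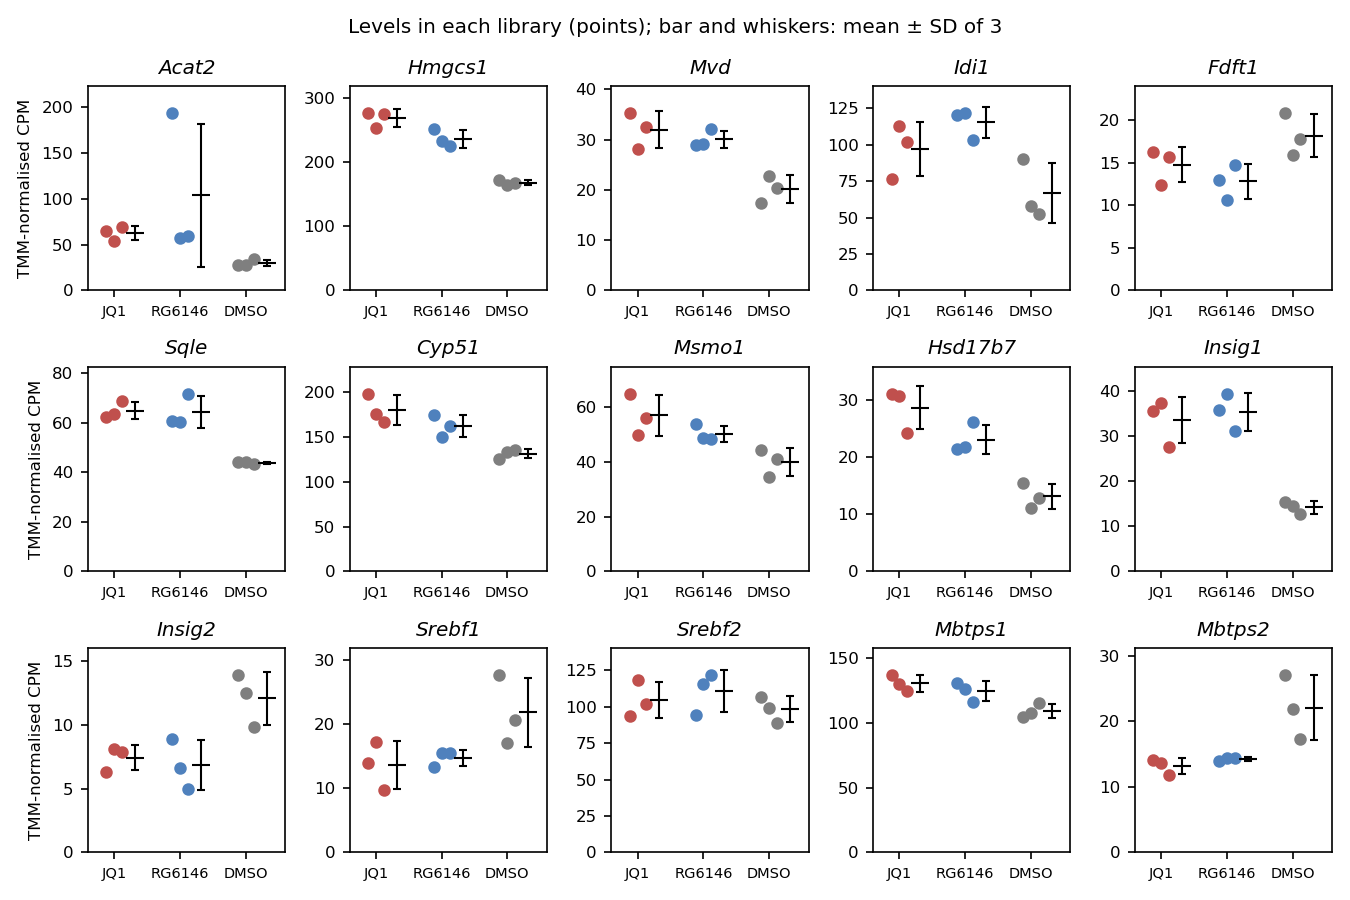
Levels of 15 genes in TMM-normalised CPM (vertical axis from 0) in each of the 9 libraries, by treatment (JQ1, RG6146, DMSO); points are libraries in the order of replicates 1 to 3, and the bar with whiskers is the mean ± SD of 3. Insig1 lies between 27.7 and 39.5 CPM in the 6 treated libraries, above the 12.7 to 15.4 CPM of DMSO, and Acat2 has 1 library, RG6146 replicate 1, at 194 CPM.

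Levels below are CPM after TMM normalisation (each count over the scaled size of its library) in replicates 1, 2 and 3, and errors of log2 fold changes are standard errors of the edgeR fit. The first steps join acetyl groups. Acat2, the cytosolic acetoacetyl-CoA thiolase, had 64.8, 53.8 and 69.0 CPM with JQ1, 194, 57.4 and 59.3 CPM with RG6146, and 27.8, 27.6 and 34.3 CPM with DMSO. All 6 treated libraries lay above all 3 DMSO libraries, and RG6146 replicate 1 stood 2.81-fold above the highest of the other 8. Neither difference passed the test, at 1.06 ± 0.52 for JQ1 (adjusted p = 0.195) and 1.79 ± 0.52 for RG6146 (adjusted p = 0.0527). Without RG6146 replicate 1 both passed, at 1.07 for JQ1 (adjusted p = 1.2e-05) and 0.97 for RG6146 (adjusted p = 0.000111). The JQ1 value also passed when JQ1 and DMSO libraries alone were fitted (adjusted p = 1.56e-05), while its fold change stayed at 1.06, and the RG6146 value without RG6146 replicate 2 (0.0429) or RG6146 replicate 3 (0.0454). Over the 19 alternatives run, the adjusted p of Acat2 lay between 1.2e-05 and 0.349 for JQ1 and between 2.24e-09 and 0.139 for RG6146. Acat3, a near-identical copy, had 248 CPM in RG6146 replicate 1 and between 241 and 291 CPM in the other 8 libraries, and reads that match both copies may be split or dropped. Its log2 fold changes, -0.095 with JQ1 and -0.015 with RG6146, were close to those of the neighbouring gene Tcp1 (-0.098 and -0.014). Whether reads of Tcp1 were counted for Acat3 was not tested.

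Hmgcs1, which encodes the HMG-CoA synthase of the next step, had 277, 253 and 276 CPM with JQ1, 251, 232 and 225 CPM with RG6146, and 172, 165 and 168 CPM with DMSO. The 3 groups did not overlap, with JQ1 highest. It rose with JQ1 by 0.68 ± 0.07 (95% interval 0.52 to 0.83, adjusted p = 2.97e-06) and with RG6146 by 0.49 ± 0.07 (0.33 to 0.65, adjusted p = 9.79e-05). Of the promoters above, that of Hmgcs1 alone matched the sterol regulatory element as searched.

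The next genes carry mevalonate to the isoprenoid diphosphates. Mvk and Pmvk encode the mevalonate and phosphomevalonate kinases, and neither passed the test, at -0.12 and -0.42 with JQ1 and -0.33 and -0.52 with RG6146, from levels of 3.95 to 9.59 CPM. Mvd, the decarboxylase that makes isopentenyl diphosphate, had 35.4, 28.1 and 32.4 CPM with JQ1, 29.0, 29.1 and 32.03 CPM with RG6146, and 17.3, 22.7 and 20.4 CPM with DMSO. The treated libraries all lay above DMSO. Mvd rose by 0.68 ± 0.13 with JQ1 (adjusted p = 0.000988) and by 0.59 ± 0.13 with RG6146 (adjusted p = 0.00355).

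Idi1, which interconverts the isoprenoid units, had 76.4, 113 and 102 CPM with JQ1, 121, 122 and 103 CPM with RG6146, and 90.5, 58.0 and 52.5 CPM with DMSO. DMSO replicate 1 lay above JQ1 replicate 1, while all RG6146 libraries lay above DMSO. Neither difference passed, at 0.53 ± 0.24 for JQ1 (adjusted p = 0.15) and 0.78 ± 0.24 for RG6146 (adjusted p = 0.0536). Both passed without DMSO replicate 1, at 0.81 (adjusted p = 0.00239) and 1.06 (adjusted p = 0.000439), and the RG6146 value also without JQ1 replicate 1 (0.0352). Over the alternatives the adjusted p of Idi1 lay between 0.00239 and 0.327 for JQ1 and between 0.000233 and 0.145 for RG6146. Fdps, the farnesyl diphosphate synthase, and Ggps1, which makes geranylgeranyl diphosphate for protein anchors, did not pass, at -0.01 and 0.04 with JQ1 and -0.05 and 0.27 with RG6146.

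Fdft1, squalene synthase, commits the pathway to sterols. It had 16.2, 12.4 and 15.7 CPM with JQ1, 12.998, 10.6 and 14.8 CPM with RG6146, and 20.9, 15.9 and 17.7 CPM with DMSO. All RG6146 libraries lay below DMSO, and the JQ1 and DMSO libraries overlapped. It fell by 0.51 ± 0.17 with RG6146 on the log2 scale (adjusted p = 0.0376) and did not pass with JQ1, at -0.31 ± 0.17 (adjusted p = 0.197). The RG6146 call ended without DMSO replicate 1 (0.163), DMSO replicate 3 (0.065), JQ1 replicate 3 (0.0508), RG6146 replicate 1 (0.0884) or RG6146 replicate 2 (0.156), without robust moderation (0.0525), with DESeq2 (0.169) and with spike-in scaling (0.372), each value an adjusted p, and over all alternatives it lay between 0.0116 and 0.372.

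Sqle, squalene epoxidase, a rate-limiting step, had 62.3, 63.5 and 68.8 CPM with JQ1, 60.9, 60.2 and 71.8 CPM with RG6146, and 44.0, 44.1 and 43.4 CPM with DMSO. The DMSO libraries agreed within 1 CPM and lay below every treated library. Sqle rose by 0.57 ± 0.10 with JQ1 (adjusted p = 0.000323) and by 0.55 ± 0.10 with RG6146 (adjusted p = 0.000435). Lss, which folds squalene epoxide into lanosterol, did not pass, at 0.25 with JQ1 and -0.01 with RG6146, from 5.69 to 10.2 CPM.

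The later enzymes trim lanosterol to cholesterol. Cyp51, the lanosterol demethylase, had 199, 175 and 167 CPM with JQ1, 175, 150.05 and 163 CPM with RG6146, and 126, 134 and 135 CPM with DMSO. All treated libraries lay above DMSO. It rose by 0.45 ± 0.09 with JQ1 (adjusted p = 0.000678) and by 0.30 ± 0.09 with RG6146 (adjusted p = 0.0139). The RG6146 call ended without DMSO replicate 1 (adjusted p = 0.0551), without RG6146 replicate 1 (adjusted p = 0.0773) and with library size scaling (adjusted p = 0.094), over a range of 0.0121 to 0.492.

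Msmo1, the methylsterol monooxygenase, had 65.0, 49.98 and 56.2 CPM with JQ1, 53.8, 48.8 and 48.4 CPM with RG6146, and 44.6, 34.4 and 41.2 CPM with DMSO. Treated libraries again lay above DMSO. It rose by 0.51 ± 0.12 with JQ1 (adjusted p = 0.00382) and did not pass with RG6146, at 0.33 ± 0.12 (adjusted p = 0.0546). It passed with RG6146 without DMSO replicate 1, JQ1 replicate 1 or JQ1 replicate 2 (adjusted p of 0.0341 to 0.045, and 0.0244 to 0.448 over all alternatives).

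Hsd17b7, the ketosteroid reductase that works with Msmo1 and Nsdhl in removing the methyl groups, had the largest fold change of the enzymes called. It had 31.1, 30.7 and 24.3 CPM with JQ1, 21.4, 21.8 and 26.1 CPM with RG6146, and 15.4, 11.1 and 12.9 CPM with DMSO. The groups of treated libraries overlapped each other and not DMSO. It rose by 1.12 ± 0.16 with JQ1 (95% interval 0.78 to 1.45, adjusted p = 4.09e-05) and by 0.80 ± 0.16 with RG6146 (0.46 to 1.138, adjusted p = 0.00116).

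The other 5 late enzymes did not pass with either compound. They are Nsdhl, the dehydrogenase of the same complex (0.50 with JQ1 and 0.36 with RG6146), Tm7sf2, a sterol reductase (0.10 and -0.0033), Ebp, the sterol isomerase (0.02 and -0.18), Sc5d, the sterol desaturase (0.08 and -0.19), and Dhcr7, which reduces the immediate precursor of cholesterol (0.30 and 0.61). Dhcr7 had 2.27 to 5.02 CPM, from 8 to 22 counts a library, and its 95% intervals ran from -0.46 to 1.07 with JQ1 and from -0.138 to 1.353 with RG6146. Ebp passed with RG6146 without RG6146 replicate 3, at -0.38 (adjusted p = 0.03, and 0.03 to 0.865 over all alternatives). Of the 19 enzymes, then, 6 rose and 0 fell with JQ1, and 5 rose and 1 fell with RG6146, with a median of 0.30 for each compound. Called enzymes made up 31.6% of the list with each compound, against 28.9% (JQ1) and 26% (RG6146) of all tested genes. Higher calls were 31.6% and 26.3% of it, against 13.6% and 12.5%, and lower calls 0% and 5.26%, against 15.4% and 13.5%. At an unadjusted p below 0.05, the counts of both directions together were 6 of 19 with JQ1 (31.6%, where 39.5% of all tested genes reached it) and 10 of 19 with RG6146 (52.6%, against 36.8% of all tested genes).

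**Figure D2:**
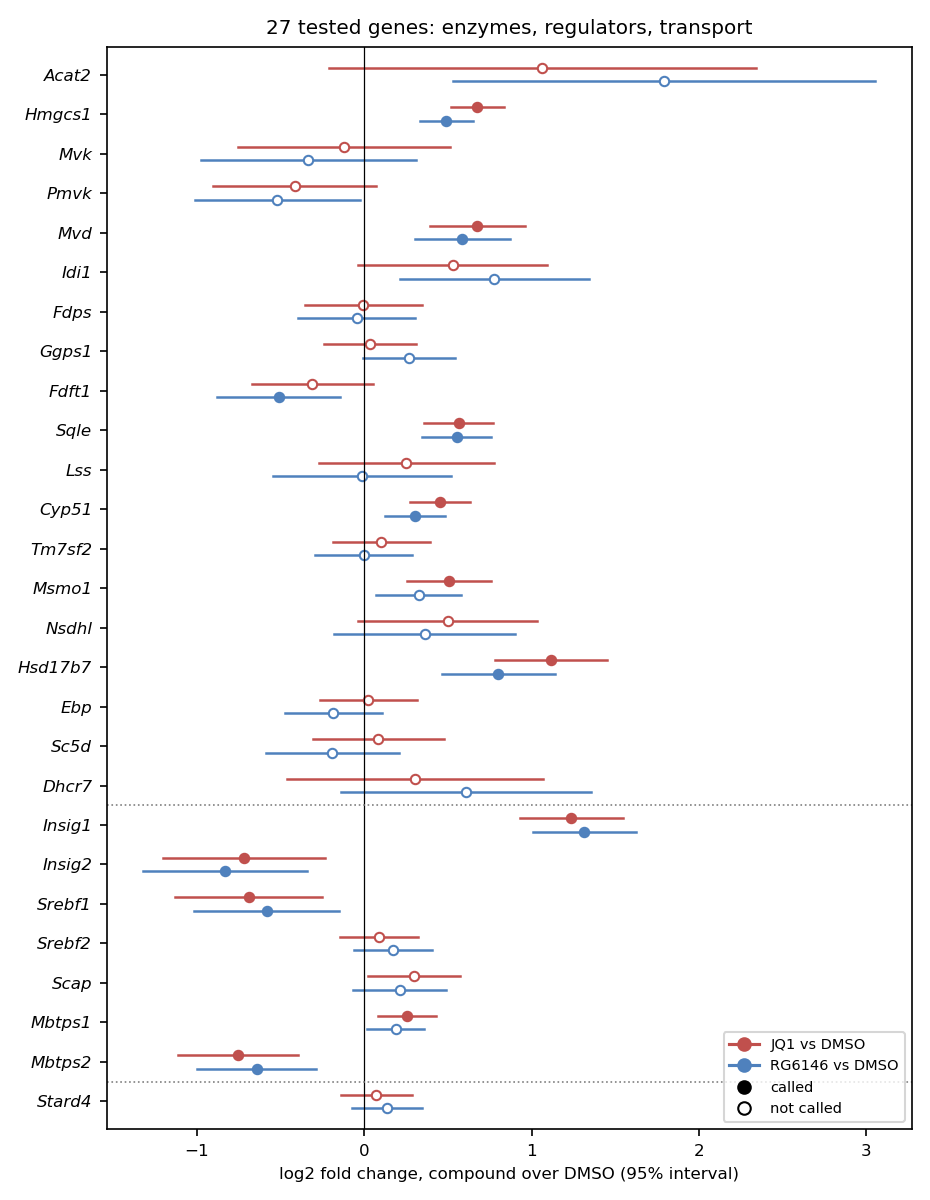
Log2 fold changes over DMSO with 95% intervals for the 27 tested genes, from the first enzyme at the top to Stard4 at the bottom, with JQ1 above RG6146 for each gene; filled points were called at an adjusted p below 0.05, and dotted lines part enzymes, regulators and transport. The called enzymes lie to the right of 0 except Fdft1 with RG6146 (-0.51), and Insig1 (1.24 with JQ1 and 1.31 with RG6146) and Insig2 (-0.72 and -0.83) lie on opposite sides.

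Among the regulators, the INSIG genes moved apart. Insig1, itself a known target of SREBP, had 35.6, 37.4 and 27.7 CPM with JQ1, 35.8, 39.5 and 31.1 CPM with RG6146, and 15.4, 14.5 and 12.7 CPM with DMSO. Every treated library stood well above every DMSO library. It rose by 1.24 ± 0.15 with JQ1 (95% interval 0.93 to 1.55, adjusted p = 6.12e-06) and by 1.31 ± 0.15 with RG6146 (1.01 to 1.62, adjusted p = 3.44e-06).

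Insig2, whose product has the same anchoring role, had 6.31, 8.09 and 7.84 CPM with JQ1, 8.89, 6.58 and 4.998 CPM with RG6146, and 13.9, 12.5 and 9.83 CPM with DMSO. Treated libraries all lay below DMSO, at 22 to 74 counts a library over the 9. It fell by 0.72 ± 0.23 with JQ1 (adjusted p = 0.0255) and by 0.83 ± 0.23 with RG6146 (adjusted p = 0.0127).

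Srebf1 encodes the SREBP forms best known for driving fatty acid genes. It had 13.9, 17.1 and 9.67 CPM with JQ1, 13.2, 15.4 and 15.4 CPM with RG6146, and 27.6, 17.1 and 20.6 CPM with DMSO. DMSO replicate 1 was highest, and JQ1 replicate 2 lay just above DMSO replicate 2. It fell by 0.69 ± 0.21 with JQ1 (adjusted p = 0.0185) and by 0.58 ± 0.20 with RG6146 (adjusted p = 0.0456). Rai1, on the opposite strand across the last 2 kb of Srebf1, fell as well, by 1.18 with JQ1 and by 0.93 with RG6146, and without a known counting strand reads of the pair cannot be told apart. The genes opposite Mvd (Gm20388) and Fdft1 (Ctsb) were not called with either compound, and Akap9, opposite Cyp51, fell by 0.56 with JQ1 and by 0.31 with RG6146 while Cyp51 rose.

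Srebf2, which encodes the SREBP that favours cholesterol genes, had 93.9, 118 and 102 CPM with JQ1, 94.2, 116 and 122 CPM with RG6146, and 107, 99.2 and 88.9 CPM with DMSO. The 3 groups overlapped. It did not pass, at 0.09 ± 0.11 with JQ1 (95% interval -0.14 to 0.32) and 0.17 ± 0.11 with RG6146 (-0.06 to 0.40). Scap, the escort, had 55.1, 44.7 and 49.15 CPM with JQ1, 44.7, 43.8 and 52.0 CPM with RG6146, and 41.4, 32.4 and 47.2 CPM with DMSO. Its groups overlapped too, and it did not pass, at 0.30 ± 0.13 with JQ1 (adjusted p = 0.099) and 0.21 ± 0.13 with RG6146 (adjusted p = 0.258), though the JQ1 value passed without DMSO replicate 3 (0.42, adjusted p = 0.0326, and 0.0326 to 0.596 over all alternatives).

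The activating proteases also moved apart. Mbtps1, the site-1 protease that makes the first cut, had 137, 129.7 and 124 CPM with JQ1, 131, 126 and 116 CPM with RG6146, and 105, 108 and 115 CPM with DMSO. The treated libraries lay above DMSO by a narrow margin. It rose by 0.26 ± 0.08 with JQ1 (adjusted p = 0.0241) and did not pass with RG6146, at 0.19 ± 0.08 (adjusted p = 0.0993). Mbtps2, the site-2 protease that makes the second cut within the membrane, had 14.1, 13.6 and 11.8 CPM with JQ1, 13.9, 14.4 and 14.3 CPM with RG6146, and 27.1, 21.9 and 17.3 CPM with DMSO. All treated libraries lay below DMSO, whose replicates were spread widely. It fell by 0.75 ± 0.17 with JQ1 (adjusted p = 0.00278) and by 0.64 ± 0.17 with RG6146 (adjusted p = 0.00867).

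Most falls of regulators and the rise of Mbtps1 depended on single libraries. Without DMSO replicate 1, the library highest for Insig2, Srebf1, Mbtps2 and Fdft1, 1 gene fell with JQ1 (Mbtps2) and 0 with RG6146, while 8 and 7 rose. When any 1 library was left out, 2492 to 3248 of all genes were called with JQ1 and 2239 to 2970 with RG6146. For JQ1, the Insig2 call ended without JQ1 replicate 1, JQ1 replicate 3, DMSO replicate 1 or DMSO replicate 2 (adjusted p of 0.0535 to 0.117), and the Srebf1 call without JQ1 replicate 1, JQ1 replicate 3 or DMSO replicate 1 (0.0596 to 0.119). The count of falls was 1 without JQ1 replicate 1 and 1 without JQ1 replicate 3. The Mbtps1 call ended without JQ1 replicate 1, DMSO replicate 1 or DMSO replicate 2 (0.0701 to 0.101). For RG6146, the Insig2 call ended without RG6146 replicate 3 (0.0677) or DMSO replicate 1 (0.0678), the Mbtps2 call without DMSO replicate 1 (0.0715), and the Srebf1 call without any 1 of RG6146 replicates 1, 2 and 3, JQ1 replicate 1, or DMSO replicates 1 and 3 (0.0682 to 0.238). The count of RG6146 falls was 2 without RG6146 replicate 1, without RG6146 replicate 2 and without DMSO replicate 3. Over all alternatives the adjusted p of Insig2 lay between 0.00934 and 0.156 for JQ1 and between 0.00341 and 0.0914 for RG6146, that of Srebf1 between 0.000788 and 0.119 and between 0.00609 and 0.285, that of Mbtps2 between 0.000218 and 0.0561 and between 0.00198 and 0.2, and that of Mbtps1 for JQ1 between 0.0197 and 0.662.

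Scaling by the ERCC spike-ins in place of TMM left 4 rises and 0 falls for each compound. With JQ1 these were Acat2, Hmgcs1, Hsd17b7 and Insig1, and with RG6146 Acat2, Idi1, Hsd17b7 and Insig1. Over all 11002 tested genes, calls went from 3184 to 1196 with JQ1 and from 2863 to 1082 with RG6146, so the loss of calls was general. The 8 members whose call ended with each compound kept nearly the same fold changes, whose size moved by -0.032 to 0.015 with JQ1 and by -0.071 to 0.043 with RG6146. With JQ1, Sqle stood at 0.56 (adjusted p = 0.13), Mvd at 0.64 (adjusted p = 0.088) and Mbtps2 at -0.75 (adjusted p = 0.0561). With spike-in scaling and the replicate number as a block, 7 genes rose and 3 fell with each compound. Over all tested genes, 2829 were then called with JQ1 and 2604 with RG6146. With DESeq2 in place of edgeR the falls numbered 1 with JQ1 (Mbtps2) and 0 with RG6146, and 8 genes rose with each compound, Idi1 among them and Mbtps1 not. DESeq2 called 2147 of all tested genes with JQ1 and 1902 with RG6146, against 3184 and 2863 with edgeR. The Mbtps1 call also ended with no filter on counts (adjusted p = 0.0511) and with library size scaling (adjusted p = 0.305). Scaling by library size moved the median of all tested genes to -0.129 with JQ1 and -0.0989 with RG6146, and the median of the 27 genes stood 0.25 and 0.18 above those values, the same as with TMM. Higher genes then made up 27.3% of all JQ1 calls and 29.9% of all RG6146 calls, against 47.0% and 48.0% with TMM, and 37.2% of JQ1 calls with the spike-ins.

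**Figure D3:**
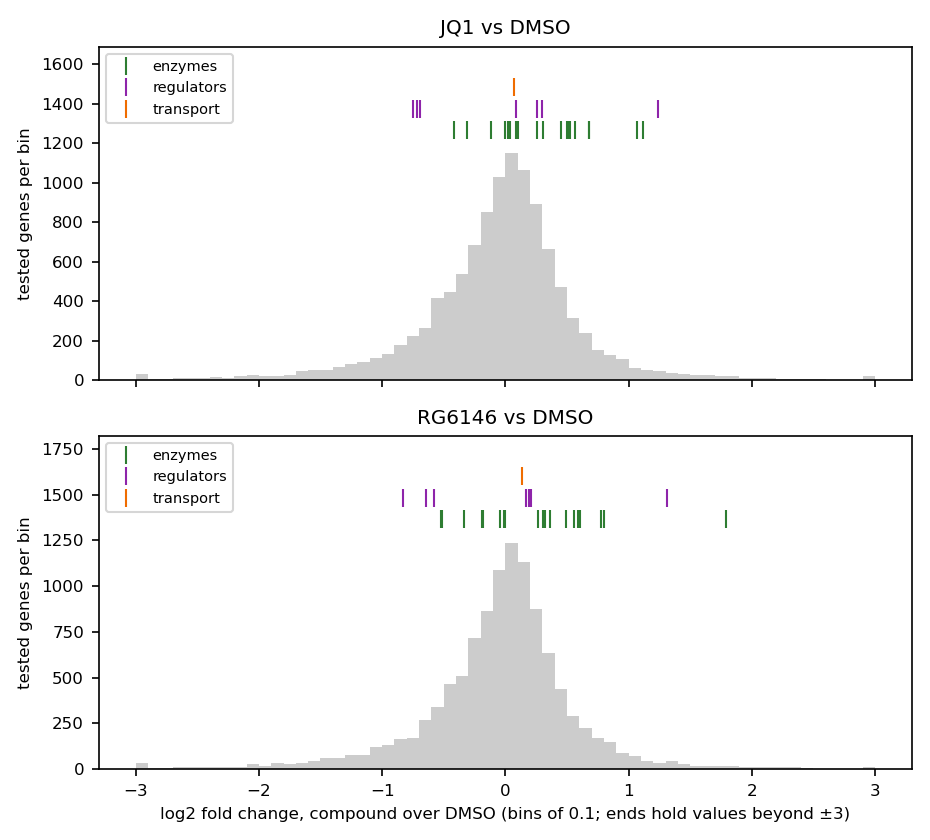
Histograms of log2 fold changes over DMSO for all 11002 tested genes (grey, bins of 0.1, values beyond 3 in the end bins), JQ1 above and RG6146 below, with a tick for each tested enzyme, regulator and transport gene. The median of the 27 genes is 0.25 with JQ1 and 0.19 with RG6146, while the 3 regulators to the left (Insig2, Srebf1 and Mbtps2) lie between -0.83 and -0.58.

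Sterol transport showed no call. Stard4, which carries cholesterol between membranes, had 69.4, 64.3 and 58.0 CPM with JQ1, 61.1, 65.3 and 74.1 CPM with RG6146, and 61.5, 61.1 and 59.7 CPM with DMSO. The groups overlapped, and the differences were 0.07 ± 0.10 with JQ1 (95% interval -0.14 to 0.28) and 0.14 ± 0.10 with RG6146 (-0.07 to 0.35). Abcg1, an exporter of cholesterol that liver X receptors induce, had 1 to 12 counts a library and was not tested. Abca1, the exporter that loads lipid-poor apolipoprotein, had 2 counts in RG6146 replicate 2, 1 count in DMSO replicate 1 and 0 in the other 7 libraries, where a count of 0 allows up to 3 counts, or 0.631 to 0.853 CPM after TMM.

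RG6146 was set against JQ1 directly, at their different doses. Of the 27 genes, 0 were higher and 0 lower by edgeR, and 0 by DESeq2, where 0.00909% of all tested genes were higher and 0% lower. At an unadjusted p below 0.05, edgeR left 1 gene of the 27, or 3.7%, against 3.88% of all tested genes, so that share is no larger than the background. The gene was Hmgcs1, at -0.18 ± 0.07 (95% interval -0.34 to -0.03, unadjusted p = 0.0233, adjusted p = 0.999), lower in all 3 RG6146 libraries than in all 3 JQ1 libraries. Hsd17b7 stood at -0.32 ± 0.15 (-0.63 to 0.00), Cyp51 at -0.15 ± 0.09 (-0.33 to 0.03) and Msmo1 at -0.18 ± 0.12 (-0.43 to 0.07). Insig1 stood at 0.08 ± 0.14 (-0.21 to 0.36), Sqle at -0.01 ± 0.10 (-0.22 to 0.19) and Mvd at -0.09 ± 0.13 (-0.36 to 0.18). The widest intervals were those of Acat2 (-0.49 to 1.95) and Dhcr7 (-0.42 to 1.03). The median over the 27 was -0.09, against 0.000404 over all tested genes. Of the 19 enzymes 4 lay above 0, as did 5516 of all 11002 tested genes. The half-width of these intervals had a median of 0.32, so differences smaller than that could not be seen for many of the genes.

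**Figure D4:**
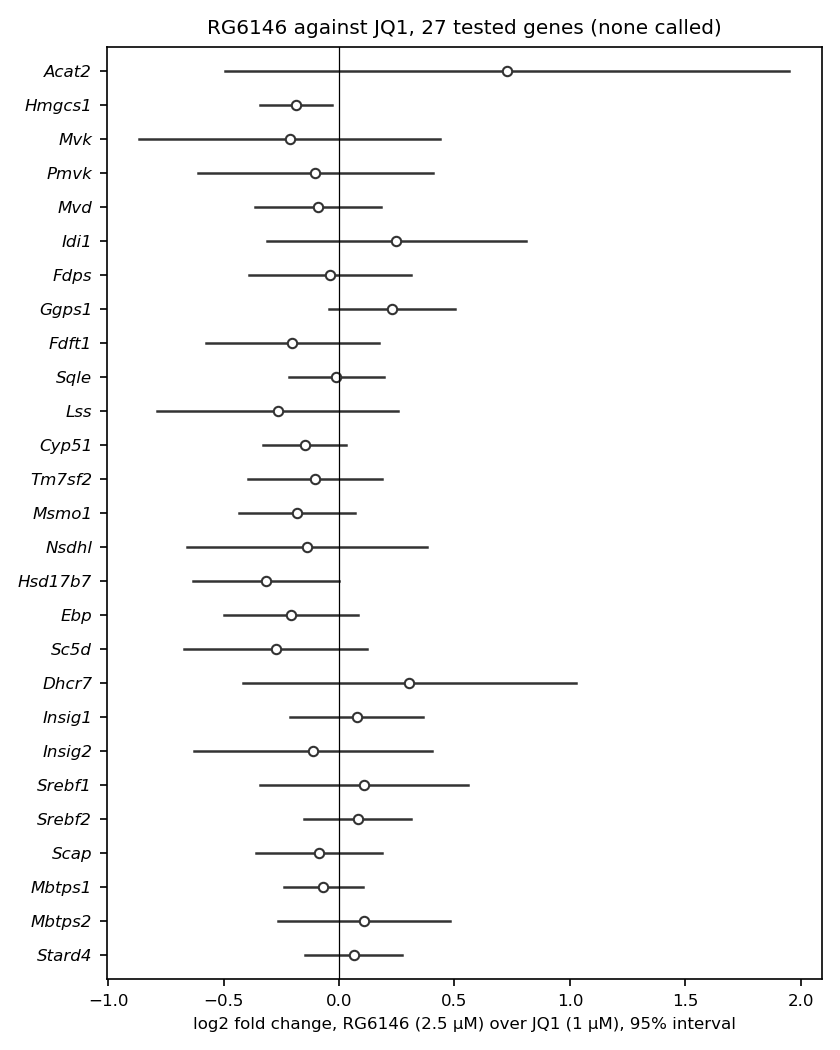
Log2 fold changes of RG6146 (2.5 µM) over JQ1 (1 µM) with 95% intervals for the 27 tested genes; open points were not called. No gene was called, and the interval of Hmgcs1 (-0.34 to -0.03) lies wholly below 0.

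Of 16 listed genes of fatty acid synthesis, a pathway under SREBP control as well, 13 were tested. With JQ1 6 rose and 2 fell, and with RG6146 5 rose and 2 fell, with medians of 0.38 and 0.37. Called genes made up 61.5% and 53.8% of the 13, where 28.9% and 26% of all tested genes were called. Acsl3, which activates long-chain fatty acids, had 177, 156 and 170 CPM with JQ1, 173, 152 and 144 CPM with RG6146, and 74.5, 69.9 and 68.1 CPM with DMSO. Its treated libraries were all far above DMSO, and it rose by 1.24 ± 0.09 with JQ1 (adjusted p = 1.76e-08) and by 1.144 ± 0.09 with RG6146 (adjusted p = 5.0e-08). Fasn, the fatty acid synthase, had 386, 324 and 363 CPM with JQ1, 306, 316 and 360 CPM with RG6146, and 242, 236 and 272 CPM with DMSO, and rose by 0.52 ± 0.09 and by 0.39 ± 0.09.

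Scd1, a desaturase that makes oleate, went the other way. It had 37.7, 38.8 and 40.8 CPM with JQ1, 39.2, 45.3 and 36.8 CPM with RG6146, and 76.9, 62.0 and 69.3 CPM with DMSO, and fell by 0.83 ± 0.11 with JQ1 and by 0.78 ± 0.11 with RG6146. Elovl6, an elongase of saturated chains, had 22.1, 20.2 and 20.9 CPM with JQ1, 19.2, 20.5 and 20.2 CPM with RG6146, and 36.1, 38.7 and 33.1 CPM with DMSO, and fell by 0.77 ± 0.12 and by 0.85 ± 0.12. Both genes were below DMSO in all 6 treated libraries. The other calls of the list, named after their values were seen, were rises of Acly (0.50 with JQ1 and 0.37 with RG6146), Acaca (0.39 and 0.32) and Aacs (0.87 and 0.80), and of Elovl5 with JQ1 (0.38). With spike-in scaling Acsl3 and Aacs still rose and Scd1 and Elovl6 still fell with each compound. The rises of Fasn (0.50 and 0.42, adjusted p of 0.178 and 0.307), Acly (0.49 and 0.40, adjusted p of 0.191 and 0.341) and Acaca (0.38 and 0.32, adjusted p of 0.373 and 0.504), and that of Elovl5 with JQ1 (0.36, adjusted p = 0.427), then lost the call at nearly the same fold changes. The Elovl5 call ended without any 1 of JQ1 replicates 1 and 2 and DMSO replicates 2 and 3 (adjusted p of 0.0654 to 0.149), and the RG6146 call of Acaca without DMSO replicate 1, RG6146 replicate 1 or RG6146 replicate 2 (0.0513 to 0.134). Over all alternatives these lay between 0.00534 and 0.427 for Elovl5 and between 0.0174 and 0.504 for Acaca.

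**Figure D5:**
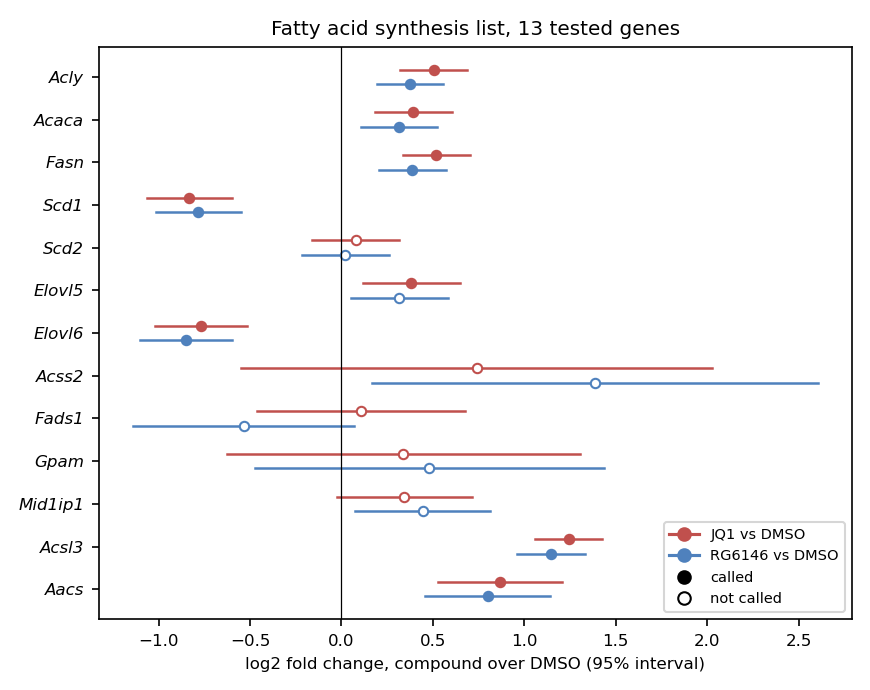
Log2 fold changes over DMSO with 95% intervals for the 13 tested genes of fatty acid synthesis, JQ1 above RG6146 for each gene; filled points were called. Acsl3 lies farthest right among called genes (1.24 with JQ1 and 1.144 with RG6146), and Scd1 (-0.83 and -0.78) and Elovl6 (-0.77 and -0.85) lie left of 0.

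In the branches that use isoprenoids outside sterols, 14 genes were tested, of which 1 rose and 0 fell with JQ1, and 2 rose and 1 fell with RG6146, with medians of 0.07 and 0.03. Calls were 7.14% and 21.4% of the list, below the 28.9% and 26% of all tested genes. Fnta, the shared subunit of the protein farnesyl and geranylgeranyl transferases, had 75.8, 66.2 and 72.7 CPM with JQ1, 75.5, 63.5 and 66.3 CPM with RG6146, and 48.7, 48.6 and 51.8 CPM with DMSO. It rose by 0.53 ± 0.10 with JQ1 (adjusted p = 0.000559) and by 0.46 ± 0.10 with RG6146 (adjusted p = 0.00184), calls that spike-in scaling ended (adjusted p of 0.185 and 0.245) at fold changes of 0.51 and 0.48. With RG6146, Rabggtb, a subunit of the Rab geranylgeranyl transferase, rose by 0.34 ± 0.10 (adjusted p = 0.0178), a call that ended without RG6146 replicate 1, RG6146 replicate 2, DMSO replicate 2 or DMSO replicate 3 (0.0677 to 0.1). Trit1, which adds an isopentenyl group to tRNA, fell by 0.54 ± 0.13 with RG6146 (adjusted p = 0.00495) and did not pass with JQ1 (-0.30). The Trit1 call ended with DESeq2 (adjusted p = 0.058). Icmt, which methylates prenylated proteins, did not pass, at 0.49 with JQ1 and 0.40 with RG6146, though the JQ1 value passed without DMSO replicate 1 (adjusted p = 0.0388).

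Of 14 listed genes of sterol trafficking and storage 8 were tested, and 1 rose and 0 fell with JQ1, and 1 rose and 1 fell with RG6146. At 12.5% and 25% of the 8, calls were no more frequent than over all tested genes (28.9% and 26%). Npc2, which hands cholesterol out of lysosomes, had 285, 302 and 289 CPM with JQ1, 248, 265 and 299 CPM with RG6146, and 188, 233 and 218 CPM with DMSO. It rose by 0.45 ± 0.09 with JQ1 (adjusted p = 0.000911) and by 0.34 ± 0.09 with RG6146 (adjusted p = 0.00797). Osbpl9, an oxysterol-binding-protein relative, fell by 0.41 ± 0.13 with RG6146 (adjusted p = 0.0305), a call that ended without RG6146 replicate 1, RG6146 replicate 3, DMSO replicate 1 or DMSO replicate 3 (0.0613 to 0.139) and with DESeq2 (0.124). Tmem97 (0.20 with JQ1 and 0.09 with RG6146) and the lipoprotein receptor gene Scarb1 (0.23 and 0.21) did not pass.

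Of 18 listed genes of sterol sensing and its nuclear factors 16 were tested, and 2 rose and 3 fell with JQ1, and 3 rose and 4 fell with RG6146. Single libraries moved these counts: 1 gene rose with RG6146 without DMSO replicate 1, without RG6146 replicate 1 or without RG6146 replicate 2, 2 fell with RG6146 without RG6146 replicate 2, and 1 rose with JQ1 without DMSO replicate 2. With DESeq2 1 gene of this list rose with RG6146. In the main edgeR fit the called share of the list was 31.2% with JQ1 and 43.8% with RG6146, against 28.9% and 26% of all tested genes. Rnf145, a sterol-responsive ubiquitin ligase of the endoplasmic reticulum, had 115, 92.3 and 115 CPM with JQ1, 109.7, 99.4 and 123 CPM with RG6146, and 144, 166 and 166 CPM with DMSO. It fell by 0.56 ± 0.10 with JQ1 (adjusted p = 0.000487) and by 0.52 ± 0.10 with RG6146 (adjusted p = 0.00109). Fbxw7, the ubiquitin ligase subunit that marks nuclear SREBP for destruction, had 89.6, 104 and 105 CPM with JQ1, 110.1, 108 and 105 CPM with RG6146, and 82.4, 77.0 and 75.8 CPM with DMSO. It rose by 0.34 ± 0.09 with JQ1 (adjusted p = 0.00598) and by 0.46 ± 0.09 with RG6146 (adjusted p = 0.000684). Rxrb, a partner of liver X receptors, fell by 0.36 ± 0.11 and by 0.54 ± 0.11, and Sp1, a factor that binds beside SREBP, by 0.34 ± 0.08 and by 0.30 ± 0.08. The JQ1 call of Rxrb ended without JQ1 replicate 2, JQ1 replicate 3, DMSO replicate 2 or DMSO replicate 3 (adjusted p of 0.0561 to 0.124), and the RG6146 call of Sp1 without RG6146 replicate 2 (0.0546). With spike-in scaling 0 genes of these last 3 lists were called by edgeR with either compound, while the fold changes of those that lost the call moved in size by -0.046 to 0.044. Of all 11002 tested genes, 1196 were then called with JQ1 and 1082 with RG6146.

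The libraries held the markers of their label. The summed level of 7 B cell markers, none at 0 in any group, was 548 to 568 CPM with JQ1, 541 to 588 CPM with RG6146, and 813 to 868 CPM with DMSO, and it was below DMSO in all 6 treated libraries. Of the 7, 4 were called lower with JQ1 and 5 with RG6146, and 0 higher, where 15.4% and 13.5% of all tested genes were called lower. The markers did not fall alike: with JQ1 the log2 fold change was -1.22 for Cd79b and Blnk and -0.80 for Ebf1. It was -0.12 for Cd79a and -0.25 for Vpreb3, which were not called. In a sum from bulk RNA, fewer cells of a type and less RNA per cell cannot be told apart. The 10 myeloid markers summed to 60.7 to 261 CPM with JQ1, 83.0 to 115 CPM with RG6146, and 142 to 680 CPM with DMSO, highest in DMSO replicate 2, and 1 of them, Adgre1, was at 0 in all RG6146 and all DMSO libraries. Of the 6 myeloid markers tested, Csf1r alone was called, higher with both compounds by 0.59 and 0.48, and 0 were called lower. The others tested (Lyz2, S100a8, S100a9, Mpo and Elane) had lower means with each compound than with DMSO. S100a8 averaged 38.8 CPM with JQ1, 29.6 CPM with RG6146 and 185 CPM with DMSO, whose replicates had 51.5, 312 and 192 CPM. Without DMSO replicate 2, 7 of the 27 genes rose and 2 fell with JQ1, and 6 rose and 4 fell with RG6146. The sums of 7 T and NK markers (2.88 to 11.9 CPM over the 9 libraries) and of 4 erythroid markers (2.27 to 8.81 CPM) were low, with Cd3d at 0 in 8 of the 9 libraries. Those of 6 stromal and endothelial markers were 102 to 106 CPM with JQ1, 103 to 113 CPM with RG6146, and 124 to 139 CPM with DMSO, most of it Vim (92.6 to 105 CPM), which did not pass (-0.08 with JQ1 and -0.0085 with RG6146). Pecam1, an adhesion molecule of endothelium that blood cells carry too, fell with both compounds, by 1.76 with JQ1 and by 1.69 with RG6146, and averaged 8.14 CPM with JQ1, 8.56 CPM with RG6146, and 27.9 CPM with DMSO. Dcn was at 0 in all 9 libraries. The part of these differences in the results was not tested.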

How the data were processed

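The deposited table holds raw read counts per gene for 9 QuantSeq 3′ libraries made from 500 ng of RNA and read as 75-base single ends, per the labels. The submitters' processing notes name build mm10 and the tools HISAT2 2.1.0, cutadapt 1.7, bcl2fastq 2.17.1.14, FastQC 0.11.5, Subread, featureCounts and limma. The counting strand, the annotation release and the handling of ambiguous reads were not given in the labels or the files.

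Gene symbols and positions came from GENCODE M21, which named 42548 of 43629 identifiers. The 92 ERCC rows stayed out of library sizes and tests. In R 4.3.3, edgeR 4.0.16 (filterByExpr with a minimum count of 10, TMM, robust quasi-likelihood fit of all 9 libraries with the treatment as its only term) tested 11002 genes, and a gene is called where its p, adjusted by Benjamini-Hochberg over these genes, is below 0.05. The script was tested on simulated data. Fold changes carry no prior count, and 95% intervals are Wald intervals. Replicates differed by more than counting error in every pair (their chi-square over its degrees of freedom was 6.28 to 15.2), and each counts as a sample.

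The members, lists and tests were chosen with earlier results of these data known. Values in every library are given for called members and for tested regulators and transport genes, and for each further list the up to 4 genes with the smallest p over the comparisons with DMSO are named. Acat2 and Idi1 are given in full and Acat3 is named after their values were seen. Promoters are RefSeq windows. Alternatives were other scalings, DESeq2 1.42.0, other filters, a replicate block, fits of 2 groups, no robust moderation and leaving out each library.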

Additional observations from a re-analysis of the deposited data

How the results depend on the processing

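No called member changed direction under any of the alternatives run. DESeq2 size factors changed no call of a member. With library size scaling the member median was 0.117 with JQ1 and 0.0810 with RG6146. With ERCC scaling 4 members were higher and 0 lower with JQ1 (1196 genes called in all), 0 were lower with RG6146 (median 0.229, 1082 genes called), and RG6146 against JQ1 had a median of -0.035 with 4 genes called. ERCC scaling with the replicate block gave an RG6146 median of 0.216. With DESeq2's test 1 member was lower with JQ1 and 0 with RG6146 (2147 genes called with JQ1 and 1902 with RG6146). Without robust moderation 2 members were lower with RG6146. RG6146 against JQ1 called 1 gene over all tested genes, 17 with no filter on counts, and 0 with a mean of at least 10 CPM, with only those groups fitted, without robust moderation and with the replicate block. The cause was not tested.

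Leaving out 1 library at a time gave 7 to 9 members higher and 1 to 3 lower with JQ1 (median 0.126 to 0.259), and 6 to 8 higher and 0 to 4 lower with RG6146 (median 0.132 to 0.247). Over all genes, 2492 to 3248 were called with JQ1 in these fits and 2239 to 2970 with RG6146. With no library left out, 3184 and 2863 were called. For RG6146 against JQ1 the member median was -0.10 to -0.041, and 0 to 2 of all genes were called.

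After TMM, gene levels in libraries with the same replicate number did not deviate together (correlations of -0.0694 to 0.107). The ERCC share of counts, however, fell from replicate 1 to replicate 3 in each group. It was 1.37%, 1.22% and 0.958% with JQ1, 1.35%, 1.17% and 0.972% with RG6146, and 1.51%, 1.18% and 1.13% with DMSO. The replicate block is given as an alternative. With it and TMM, Msmo1 passed with RG6146 (adjusted p = 0.0244) and Srebf1 did not (adjusted p = 0.0684). Then 8 members were higher and 3 lower with JQ1, and 7 were higher and 3 lower with RG6146. Every library correlated best with its own number in none of the 3 comparisons. Depth limits the genes with few reads: Dhcr7, Mvk and Pmvk had 122, 240 and 244 counts over the 9 libraries.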

Other observations

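RG6146 replicate 1 held 850 counts of Acat2, against 227 and 261 in the other RG6146 libraries. In that library 7 genes reached at least 20 CPM and at least 2.5-fold the highest level among the other 8 libraries, of which 5 were processed pseudogenes, and Acat2 was the only member. The other libraries had 1 to 11 such genes, with no member among them. Tcp1, the neighbour of Acat2, had 393 CPM in RG6146 replicate 1, and 376 to 440.1 CPM in the other libraries. The members together took 0.131% to 0.135% of gene counts with JQ1, 0.128% to 0.144% with RG6146, and 0.107% to 0.119% with DMSO, and RG6146 replicate 1 had the highest share.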
